A study of Mus musculus with 2 samples.

Results

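The genes described here serve antigen presentation by MHC class II. They are the chain genes H2-Aa, H2-Ab1 and H2-Eb1, the invariant chain gene Cd74, the peptide-loading genes H2-DMa, H2-DMb1 and H2-DMb2, the gene H2-Oa and the activator gene Ciita. They were taken by symbol from the feature table of the count files, where these 9 genes are among 27998.

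Class II molecules show peptides from engulfed proteins to CD4 T cells, and dendritic cells, B cells and activated macrophages are the cells best known to carry them. The alpha and beta chains assemble on the invariant chain, whose remnant peptide is then exchanged for an antigen peptide with the help of H2-DM. H2-O, made by H2-Oa and H2-Ob, restrains H2-DM, and it is known from B cells and some dendritic cells. Ciita binds no DNA itself: it joins RFX, CREB and NF-Y factors at the X and Y boxes of class II promoters and switches these genes on together, and in macrophages interferon gamma induces it.

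The cells came from tumors of B16F10, a mouse melanoma line, grown under the skin of C57BL/6 mice for 14 days. The control hosts were Usp18f/f, with both copies of Usp18 flanked by recombination sites and no Cre. The other hosts were Usp18f/f LysM-Cre, in which Cre sits in the Lyz2 locus and is active in macrophages, monocytes, neutrophils and a share of dendritic cells, and they carry the same floxed alleles. Usp18 removes the ubiquitin-like protein ISG15 from other proteins and dampens signalling by type I interferon. Sorted live CD45+ cells of 4 pooled tumors per group gave 1 droplet library per group, made with a 10x Genomics kit that reads transcript 3' ends. No difference below has a replicate check or a p-value, and all intervals are 95% intervals that cover counting error only.

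The 2 libraries held 7754 (control) and 6063 barcodes. Their totals were 43412346 and 48167632 UMIs (unique transcript tags), or 2600 and 4455 for the median barcode. The filters left 6684 and 5466 cells, and 8 barcodes occurred in both libraries. Below, of any pair of values the first is from the control library. The labels were checked first. Lyz2, whose coding sequence the Cre insertion replaces, stood at 7183 and 9.39 CPM (UMIs per 1000000 UMIs) in macrophages. Usp18 went against the label: it stood at 16.9 and 38.9 CPM in macrophages, 2.30-fold higher in the second library (1.87 to 2.85), although tags from the 3' end need not report a deleted exon. The second library is therefore called the library labelled knockout throughout.

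The libraries also differ in the make-up of their hosts, and the labels give no sex. Cells with a UMI of Xist and none of the Y-linked genes Ddx3y, Eif2s3y, Kdm5d and Uty are called Xist cells, and those with the reverse pattern Y cells. Of all cells with either pattern, Xist cells made up 36.4% and 86.1%. Genotype and this mixture cannot be told apart in the whole libraries, so values within each kind are given where both libraries hold at least 20 such cells. In Y cells of the macrophage class Usp18 stood at 17.7 and 18.2 CPM, and in Xist cells at 13.7 and 43.7 CPM, while Lyz2 stood at 6908 and 3.24 CPM in Y cells and at 7672 and 13.1 CPM in Xist cells.

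Classes were named from marker lists after both libraries were clustered together without the 9 genes, so a name means only that a cluster resembles that type. The markers that define each class were all detected in it in both libraries. The control library and the library labelled knockout held 670 and 991 macrophages, 1023 and 1167 monocytes, 142 and 145 cDC1 (cross-presenting conventional dendritic cells), and 415 and 328 cDC2 (conventional dendritic cells of the other type). They further held 136 and 164 migratory dendritic cells, 151 and 84 plasmacytoid dendritic cells (pDC), and 1441 and 440 B cells. A cluster of 110 and 483 cells led by Ifit1bl1, Rsad2, Ccl7 and Isg15 stayed unnamed and is in none of these classes. The macrophage class includes a shallow cluster of 61 and 257 cells led by Ccl8, AY036118 and Mrc1, with a median of 816 UMIs per cell. It held 115585 and 243694 of the 6980668 and 10648762 UMIs of the class, so it weighs more in cell counts than in CPM.

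In GENCODE M21 on the GRCm38 build, the class II chain, DM and DO genes lie together on chromosome 17. From the proximal end these are H2-Oa (34092340 to 34095234), H2-DMa (34119541 to 34139101), H2-DMb2 (34143307 to 34151555), H2-DMb1 (34153072 to 34160230), H2-Ab1 (34257689 to 34269419), H2-Aa (34282744 to 34287823, minus strand) and H2-Eb1 (34305867 to 34316674). Ciita lies on chromosome 16 (10480059 to 10528418). H2-DMb1 and H2-DMb2 encode near-identical beta chains. Over the whole transcripts they shared 517 sequences of 31 bases, 37.6% of those of H2-DMb1 and 29.7% of those of H2-DMb2. In the last 500 bases, where the kit reads, they shared 4 of 470, so their UMIs are largely distinct.

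RefSeq promoter windows (GRCm38.p6) matched 6 of the 9 genes by symbol, and were not found for H2-Ab1, Cd74 and Ciita. They are shown because the shared X and Y boxes are what ties these genes to Ciita. Both strands were searched for an X box core, AACNGATG, and for the Y box, CCAAT, which reads ATTGG on the other strand; the motifs share no letters in these windows. Among 32851 promoter windows of 300 bases, 2.32% held the first motif, 37.4% the second and 0.88% both. The windows of H2-Eb1, H2-DMb1 and H2-DMb2 held both, with the X box upstream and the starts of the motifs 30, 31 and 31 bases apart. Each line gives 100 bases of the gene's own strand, 5' to 3', with complete motif matches in capitals.
H2-Eb1, chr17:34305733-34305832, plus strand: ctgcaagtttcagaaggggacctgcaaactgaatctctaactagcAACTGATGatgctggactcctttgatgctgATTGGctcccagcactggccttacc
H2-DMb1, chr17:34153055-34153154, plus strand: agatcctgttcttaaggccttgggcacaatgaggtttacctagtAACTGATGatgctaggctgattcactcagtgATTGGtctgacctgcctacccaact
H2-DMb2, chr17:34145084-34145183, plus strand: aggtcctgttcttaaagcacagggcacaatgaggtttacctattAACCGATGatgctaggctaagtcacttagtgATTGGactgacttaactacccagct

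The motif pair starts 89, 92 and 121 bases before the annotated transcript start in H2-Eb1, H2-DMb1 and H2-DMb2. Lined up at the Y box without gaps, the stretches of H2-DMb1 and H2-DMb2 had the same base at 85 of 100 positions. They matched the H2-Eb1 stretch at 31 and 32 of 100 positions. In that comparison the X boxes are out of line, because the motif starts are 30 bases apart in H2-Eb1 and 31 in the others. The H2-Aa and H2-Oa windows held the Y box, 48 and 43 bases before the start. Neither these nor the 2 windows of H2-DMa held an X box core in the letters searched. An X box written otherwise would be missed by this search.
H2-Aa, chr17:34287847-34287946, minus strand: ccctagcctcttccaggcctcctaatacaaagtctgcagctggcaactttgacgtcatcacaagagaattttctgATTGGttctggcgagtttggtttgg
H2-Oa, chr17:34092261-34092360, plus strand: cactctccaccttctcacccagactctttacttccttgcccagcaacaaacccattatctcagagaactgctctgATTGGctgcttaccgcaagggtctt

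Conventional dendritic cells carried the highest levels of the chain genes, Cd74 and Ciita. Levels are CPM within a class and library. The UMIs count transcript ends and were not divided by transcript length. H2-Ab1, a beta chain, stood in the control library at 8062 CPM in cDC1 (interval 7922 to 8203) and 8042 CPM in cDC2 (7946 to 8138), and these do not differ beyond counting error. B cells followed at 2640 CPM, then migratory dendritic cells at 2367, macrophages at 1891, pDC at 1340 and monocytes at 1204 CPM. T cells stood at 66.7 CPM and NK cells at 42.5 CPM in the same library, well below each of the 7 presenting classes. Apart from cDC1 with cDC2, each of the 7 control levels lay outside the interval of its neighbour.

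Cd74, which escorts the chains to the loading compartment, lies on chromosome 18 (60803848 to 60812652, GRCm38). Its control order was led by cDC2 at 15830 CPM, cDC1 at 13332 and B cells at 10240 CPM, and monocytes were lowest at 3054 CPM. Cd74 made up a larger share of the summed UMIs of Cd74 and the 3 chain genes in pDC (55.0%) and B cells (54.1%) than in cDC1 (39.1%) of the control library. Ciita stood at 267 CPM in control cDC2 and 250 CPM in cDC1, and their intervals overlapped. It was lower in B cells at 148 CPM, in migratory dendritic cells at 91.7, in macrophages at 33.9, in monocytes at 32.6 and in pDC at 25.9 CPM, and the last 3 had overlapping intervals. So pDC held Cd74 above macrophages while their Ciita UMIs numbered 18 in the control library.

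**Figure D1:**
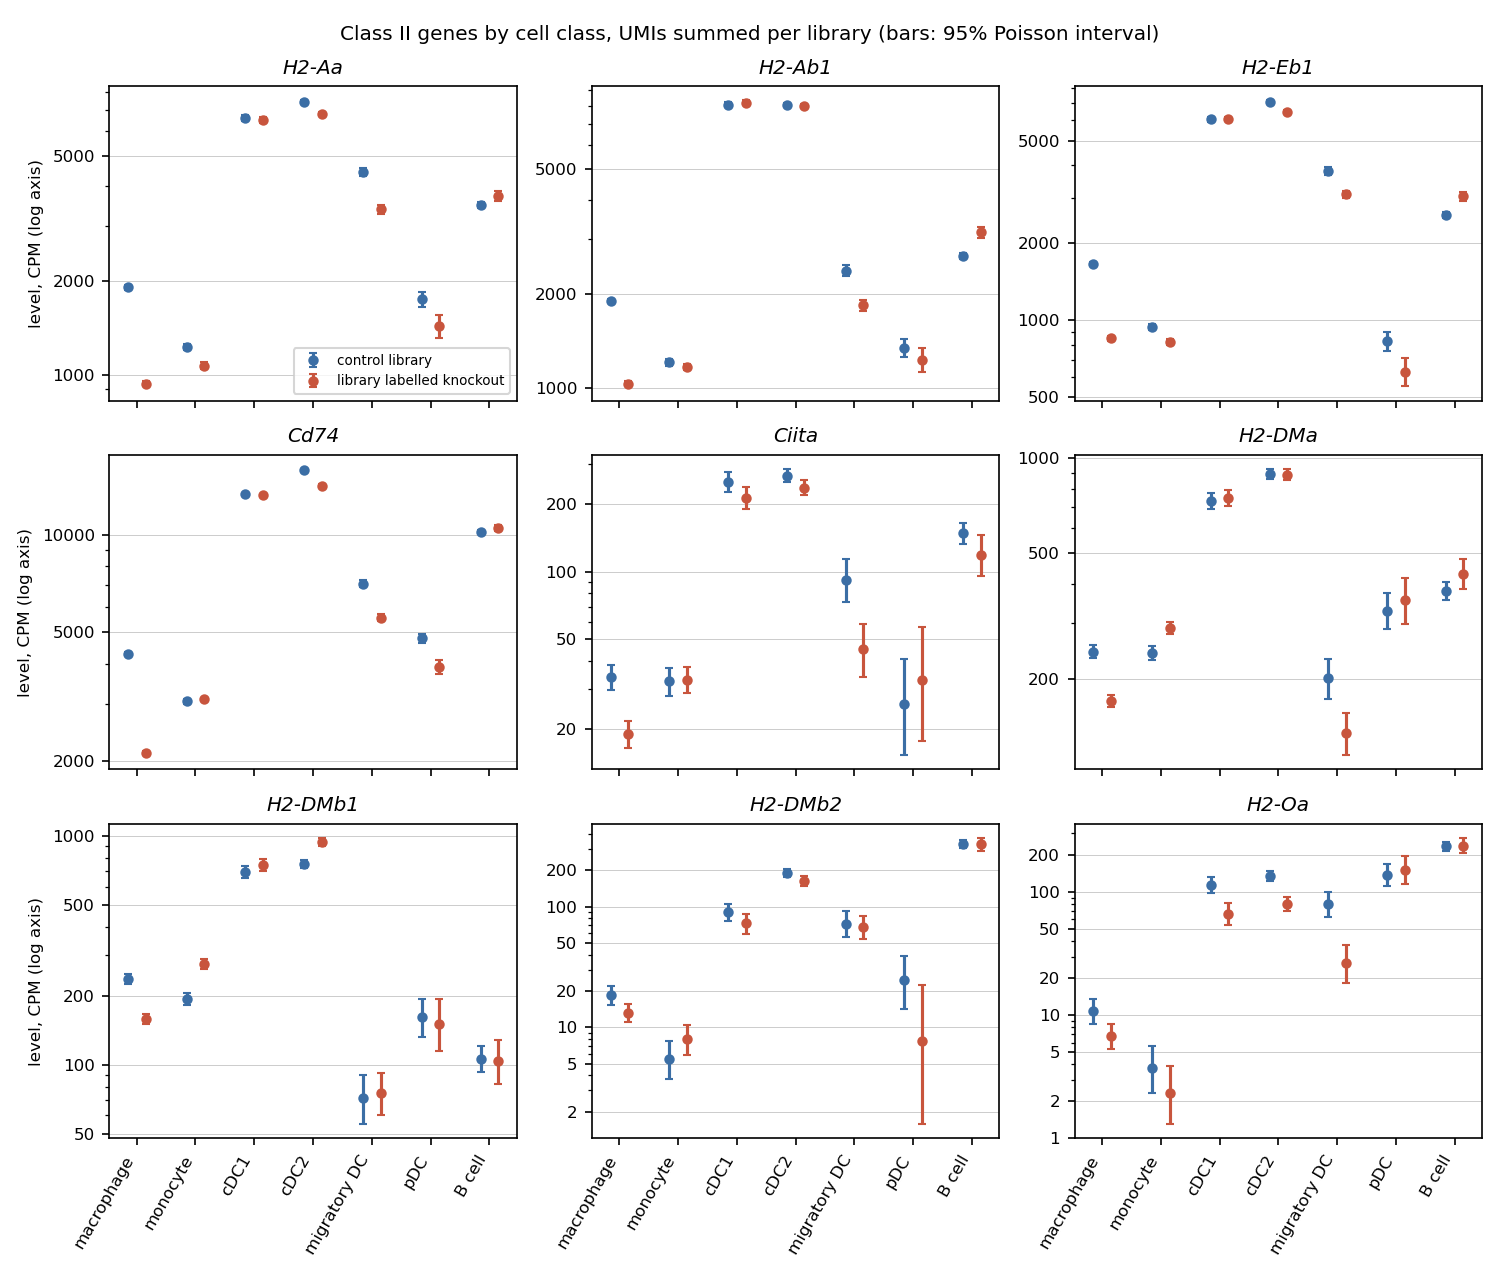
Level of each of the 9 class II genes (CPM, log axis) in 7 cell classes of the control library and the library labelled knockout, with exact Poisson 95% intervals. The 4 genes H2-Aa, H2-Ab1, H2-Eb1 and Cd74 are highest in cDC1 and cDC2, and H2-DMb2 and H2-Oa are highest in B cells. The intervals of the libraries are apart in several places. Among them are the chain genes and Cd74 in macrophages, H2-Oa in cDC2 and migratory dendritic cells, and H2-Ab1 in B cells.

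The loading genes differed from each other in their order. H2-DMa was led by cDC2 at 890 CPM and cDC1 at 732 CPM in the control library, with B cells at 379 CPM. H2-DMb2 was highest in B cells at 332 CPM in the control library, against 189 CPM in cDC2 and 5.43 CPM in monocytes. H2-DMb1 was highest in cDC2 at 750 CPM and stood at 106 CPM in B cells. Of the UMIs of both beta chain genes, H2-DMb2 held 75.7% in control B cells (72.9 to 78.4), 50.4% in migratory dendritic cells, 20.1% in cDC2, 11.4% in cDC1, 7.20% in macrophages and 2.73% in monocytes. The library labelled knockout gave 76.0%, 47.5%, 14.8%, 8.87%, 7.66% and 2.79% for these 6 classes, in the same order. B cells thus drew mostly on H2-DMb2, and monocytes and macrophages mostly on H2-DMb1, in both libraries.

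H2-Oa, one chain of the inhibitor of H2-DM, was likewise highest in B cells, at 237 CPM in the control library. It stood at 138 CPM in pDC and 136 CPM in cDC2, which do not differ beyond counting error, and at 114 CPM in cDC1, 79.8 CPM in migratory dendritic cells, 10.7 CPM in macrophages and 3.73 CPM in monocytes. H2-Oa in NK cells stood at 20.4 CPM, from 12 UMIs, and in T cells at 15.01 CPM, from 77 UMIs. The intervals of both overlapped that of macrophages, which had 75 UMIs. Set against H2-DMa, the alpha chain of its target, H2-Oa held 38.5% of the UMIs of both genes in control B cells and 29.6% in pDC, but 4.22% in macrophages and 1.52% in monocytes.

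Migratory dendritic cells stood apart in the H2-Ab1 share of the chain genes. Of the UMIs of H2-Aa, H2-Ab1 and H2-Eb1, H2-Ab1 held 22.3% (21.5 to 23.1) and 22.1% (21.3 to 22.9) there. In the other 6 classes it held between 30.3% and 39.4% in both libraries. The level of H2-Ab1 was 2367 CPM in control migratory dendritic cells, beside 4444 CPM of the alpha chain gene H2-Aa and 3806 CPM of H2-Eb1. The balance was also unlike the rest in pDC, where H2-Eb1 held 21.1% and 19.1% of the same UMIs. Its next lowest share was 26.8%, in monocytes of the library labelled knockout.

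**Figure D2:**
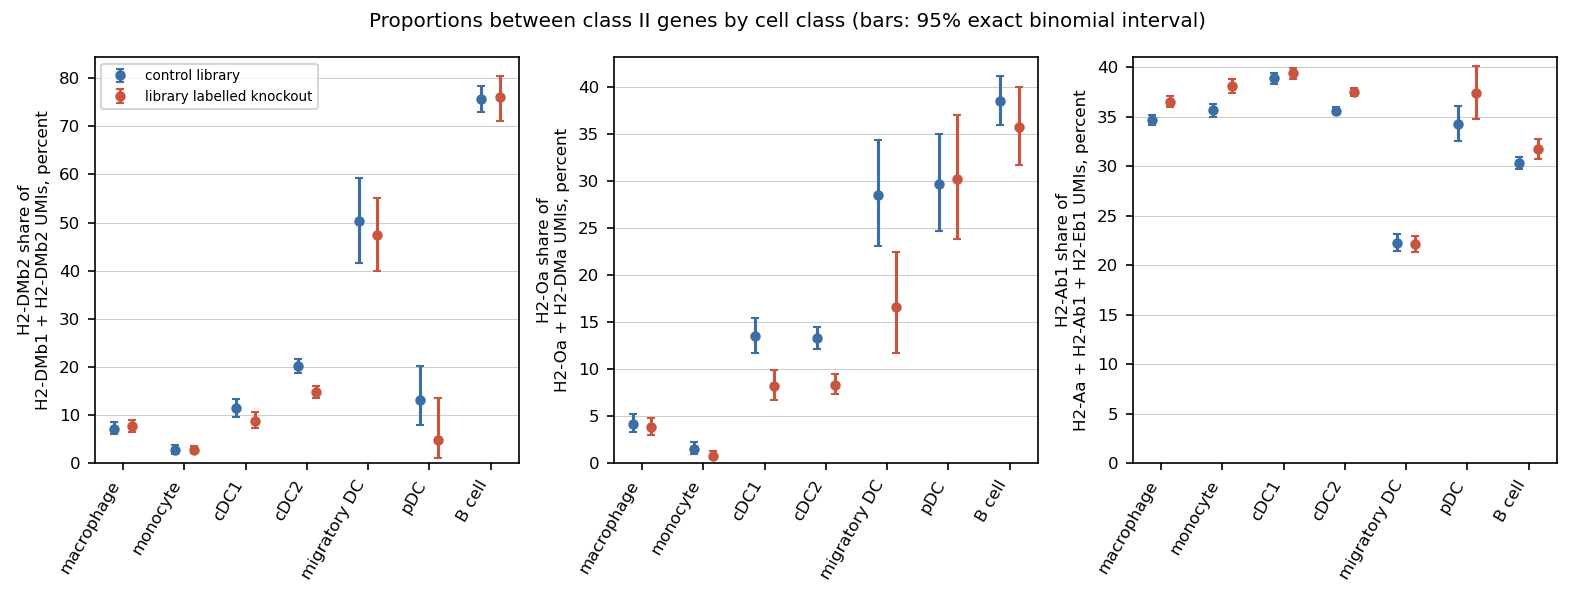
Share in percent of H2-DMb2 in the UMIs of both DM beta genes (left), of H2-Oa in the UMIs of H2-Oa and H2-DMa (middle) and of H2-Ab1 in the UMIs of the 3 chain genes (right), by class and library, with exact binomial 95% intervals. H2-DMb2 runs from 2.73% in control monocytes to 75.7% in control B cells, and the H2-Ab1 share is lowest in migratory dendritic cells of both libraries.

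Per cell, the share with at least 1 UMI depends on depth, so each cell was thinned to 1000 UMIs and shallower cells were left out. H2-Ab1 was then found in 100% of 137 cDC1, 96.1% of 409 cDC2, 89.4% of 1386 B cells, 53.7% of 147 pDC, 47.6% of 636 macrophages, 44.0% of 134 migratory dendritic cells and 30.03% of 1009 monocytes of the control library. T cells outside the cluster of Foxp3-expressing cells, which should lack the gene, gave 3.28%, and 6.65% without thinning, at a median of 2294 UMIs per cell. Without thinning, the share was 73.6% in macrophages, at a median of 9363.5 UMIs, and 49.3% in monocytes, at 5528 UMIs. Among the migratory dendritic cells 73.1% had an H2-Aa UMI after thinning. Ciita was found in 24.9% of thinned cDC2 and 3.30% of thinned macrophages, against 0.121% of thinned T cells, and in 75.7%, 19.0% and 0.833% of these without thinning.

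Macrophages of the library labelled knockout had lower levels of all 9 genes. H2-Aa stood at 1903 and 939 CPM, 2.03-fold lower (1.98 to 2.08). H2-Ab1 stood at 1891 and 1028 CPM, H2-Eb1 at 1656 and 848 CPM, and Cd74 at 4293 and 2112 CPM. Ciita was at 33.9 and 19.0 CPM, 1.79-fold lower (1.48 to 2.17). The DM and DO genes differed less: H2-DMa stood at 244 and 170 CPM, H2-DMb1 at 236 and 158, H2-DMb2 at 18.3 and 13.1, and H2-Oa at 10.7 and 6.76 CPM. On the scale used for the lists, the log2 ratio of (CPM + 5) in the library labelled knockout over the control, which understates differences of low genes, the members had a median of -0.70, against -0.02 over all 11064 genes with at least 20 UMIs. With at least 1.5-fold on that scale as the limit, 5 of the 9 members were lower and none was higher, where 0.85% of all genes were lower and 1.32% were higher.

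The size of this difference rests on which cells count as macrophages. One macrophage cluster is led by histone and cell-cycle genes and is called cycling here. When the libraries were clustered separately, 26 of the 101 Xist cells that the library labelled knockout had in it fell among cDC1. The 9 macrophage markers summed to 520 CPM in these 26 cells and to 18215 CPM in the 73 that stayed macrophages, and H2-Ab1 stood at 7541 and 851 CPM. The cDC1 markers summed to 552 and 333 CPM in the same cells. In the largest macrophage cluster, 27 Xist cells of that library fell in an unnamed cluster and 15 among monocytes, with H2-Ab1 at 5216 and 2595 CPM against 689 CPM in the 232 that stayed. Macrophage markers summed to 16301 and 15612 CPM in these 2 groups and to 24502 CPM in the 232 cells. Values are therefore also given for the 653 and 867 cells named macrophages in both clusterings, a class chosen after these values were seen. Since the cells it leaves out are high in class II, part of its lower level follows from the choice.

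Among cells named macrophages in both clusterings, H2-Aa stood at 1903 and 508 CPM, H2-Ab1 at 1893 and 515, H2-Eb1 at 1659 and 446, and Cd74 at 4279 and 1227 CPM. Ciita was at 34.4 and 6.29 CPM, H2-DMa at 242 and 119, H2-DMb1 at 236 and 99.3, H2-DMb2 at 18.2 and 4.09, and H2-Oa at 10.9 and 1.89 CPM. The control levels hardly moved with the narrower class, and those of the library labelled knockout dropped. The member log2 ratios ran from -1.89 to -0.99 with a median of -1.80, and 9 of 9 were lower by the limit and 0 higher, where 1.86% of all genes were lower and 1.27% higher. Without the cycling cluster, but with all other macrophages of the joint clustering, the median was -1.02.

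In Y cells the macrophage difference was more than 4-fold for the chain genes and Cd74 under both definitions of the class. Among 337 and 229 Y cells, H2-Aa stood at 1976 and 264 CPM, 7.49-fold lower (6.97 to 8.06). Cd74 stood at 4420 and 567 CPM, 7.80-fold lower (7.43 to 8.20), H2-Ab1 at 1964 and 317 CPM, and H2-Eb1 at 1725 and 246 CPM. Ciita was at 30.7 and 7.45 CPM, from 125 and 23 UMIs, 4.12-fold lower (2.62 to 6.73). H2-DMa stood at 252 and 72.3 CPM, H2-DMb1 at 253 and 61.3, H2-DMb2 at 17.7 and 3.57, and H2-Oa at 10.6 and 2.59 CPM. The median log2 ratio was -1.96, and 9 of 9 members were lower and 0 higher, where 4.72% of all genes were lower and 1.89% higher. On the (CPM + 5) scale the chain genes and Cd74 had log2 ratios between -2.95 and -2.61, and the other 5 members from -1.96 to -1.03. In plain CPM, H2-DMa was 3.49-fold lower (3.02 to 4.05) and H2-DMb1 4.12-fold (3.53 to 4.84), less than H2-Ab1 at 6.20-fold (5.80 to 6.63). For H2-DMb2 at 4.96-fold (2.61 to 10.4) and H2-Oa at 4.07-fold (1.89 to 10.03) the interval included the H2-Ab1 value. That of Ciita did so too.

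For Y cells named macrophages in both clusterings the gap was wider. Among 329 and 215 such cells, H2-Aa stood at 1965 and 115 CPM, H2-Ab1 at 1951 and 146, H2-Eb1 at 1716 and 110, and Cd74 at 4377 and 260 CPM. Ciita stood at 30.99 and 2.37 CPM, from 124 and 7 UMIs. H2-DMa kept more of its level, at 249 and 61.5 CPM, as did H2-DMb1 at 252 and 50.03 CPM. H2-DMb2 and H2-Oa had 1 UMI each in the library labelled knockout, against 69 and 43 in the control, with ratios to the control of 0.0196 (0.000489 to 0.113) and 0.0315 (0.000779 to 0.185). All 9 members were lower, with a median log2 ratio of -2.29, where 5.39% of all genes were lower and 1.99% higher. Over all Y cells of the joint clustering H2-Ab1 stood at 1527 and 269 CPM in the largest macrophage cluster and at 2573 and 400 CPM in the cycling one. The 141 and 61 of these Y cells of the library labelled knockout that stayed macrophages were at 170 and 104 CPM, and 10 that fell among monocytes and 2 that fell among cDC1 were at 2675 and 9666 CPM.

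Xist cells gave a smaller difference, and one that depends on the class. Among 166 and 453 Xist macrophages of the joint clustering, H2-Ab1 stood at 1580 and 1578 CPM, Cd74 at 3367 and 3200 CPM, and Ciita at 29.2 and 25.9 CPM. The median was -0.07 with 0 of 9 members lower and 0 higher, where 3.57% of all genes were lower and 4% higher. Among the 161 and 374 Xist cells named macrophages in both clusterings, H2-Aa stood at 1542 and 725 CPM, H2-Ab1 at 1609 and 747, H2-Eb1 at 1365 and 645, and Cd74 at 3400 and 1794 CPM. Ciita stood there at 29.8 and 6.22 CPM, while H2-DMa at 182 and 162 CPM and H2-DMb1 at 171 and 132 CPM were close. The median was -1.08, and 7 of 9 members were lower and 0 higher, where 4.38% of all genes were lower and 3.64% higher.

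Within 1 library, Y and Xist macrophages can be set side by side without comparing the libraries. The log2 ratio of Y over Xist cells had a median over the 9 members of 0.36 in the control and -1.86 in the library labelled knockout. Among cells named macrophages in both clusterings the medians were 0.33 over 9 members and -1.82 over 8. Class II was thus somewhat higher in Y macrophages of the control library and much lower in those of the library labelled knockout, and whether this follows genotype, host or tumor was not tested.

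**Figure D3:**
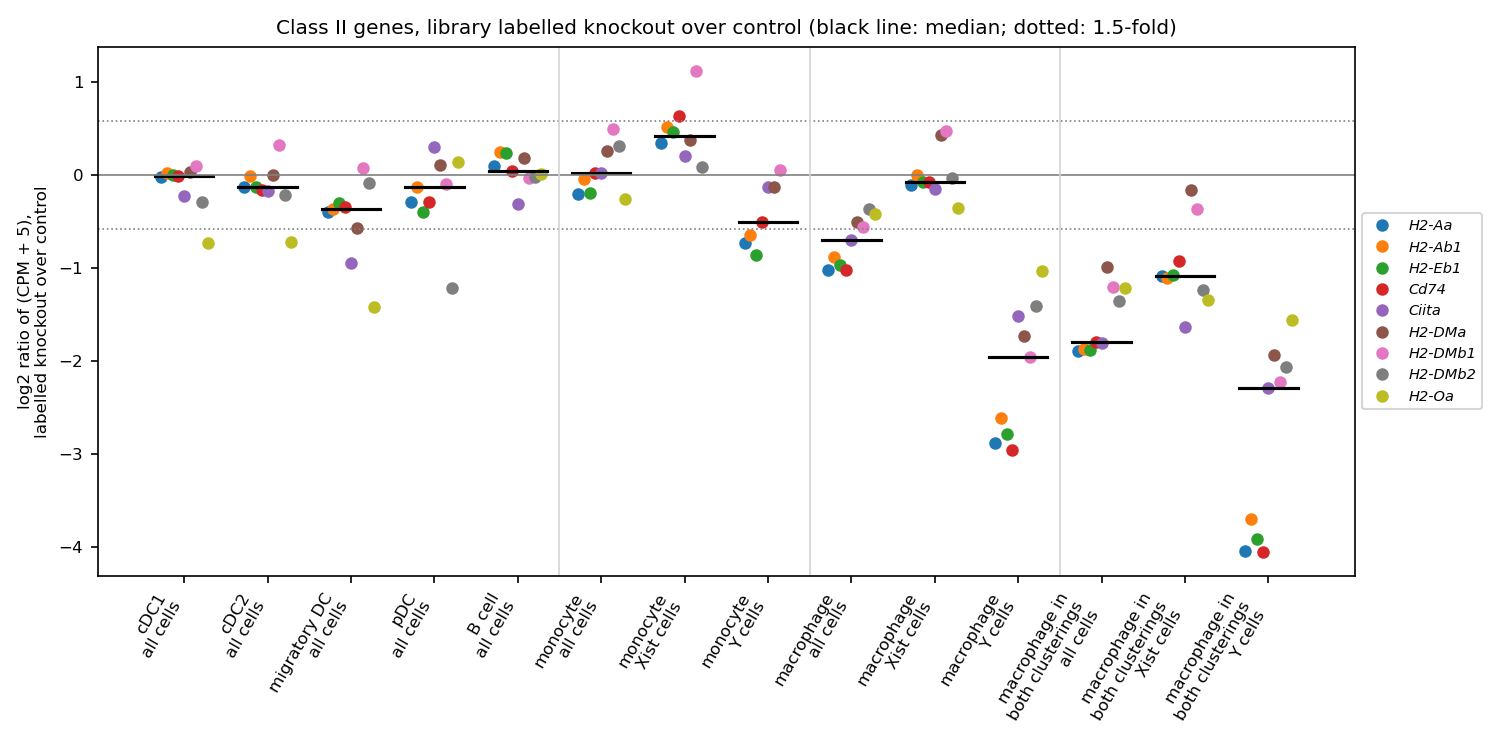
Log2 ratio of (CPM + 5), library labelled knockout over control, for each of the 9 genes (points) in each class and kind of cell, with the median (black line) and the 1.5-fold limit (dotted). Medians lie between -0.37 and 0.04 in all cells of the dendritic and B classes, at 0.02, 0.42 and -0.50 in all, Xist and Y monocytes, and between -2.29 and -0.07 in the macrophage groups.

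Single cells showed what the sums are made of. The UMIs of H2-Aa, H2-Ab1, H2-Eb1 and Cd74 were added in each cell after thinning to 1000 UMIs. Of Y cells named macrophages in both clusterings, 30.2% of 325 and 83.2% of 208 had none of these UMIs. At least 20 of 1000 UMIs were found in 22.8% and 0.962% of them. Among Xist cells of the same class, 46.2% of 158 and 43.8% of 331 had none, and 15.8% and 5.44% had at least 20. In Xist macrophages of the joint clustering, from which the narrower class leaves out cells high in class II, 46.6% and 37.0% had none and 15.5% and 16.2% had at least 20. A cell with none of these UMIs after thinning may still hold some at its full depth. Without thinning, at medians of 10761 and 12973 UMIs, H2-Ab1 was found in 80.2% and 40.9% of the Y cells named macrophages in both clusterings, Cd74 in 83.6% and 34.9%, and H2-DMa in 70.8% and 47.9%.

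**Figure D4:**
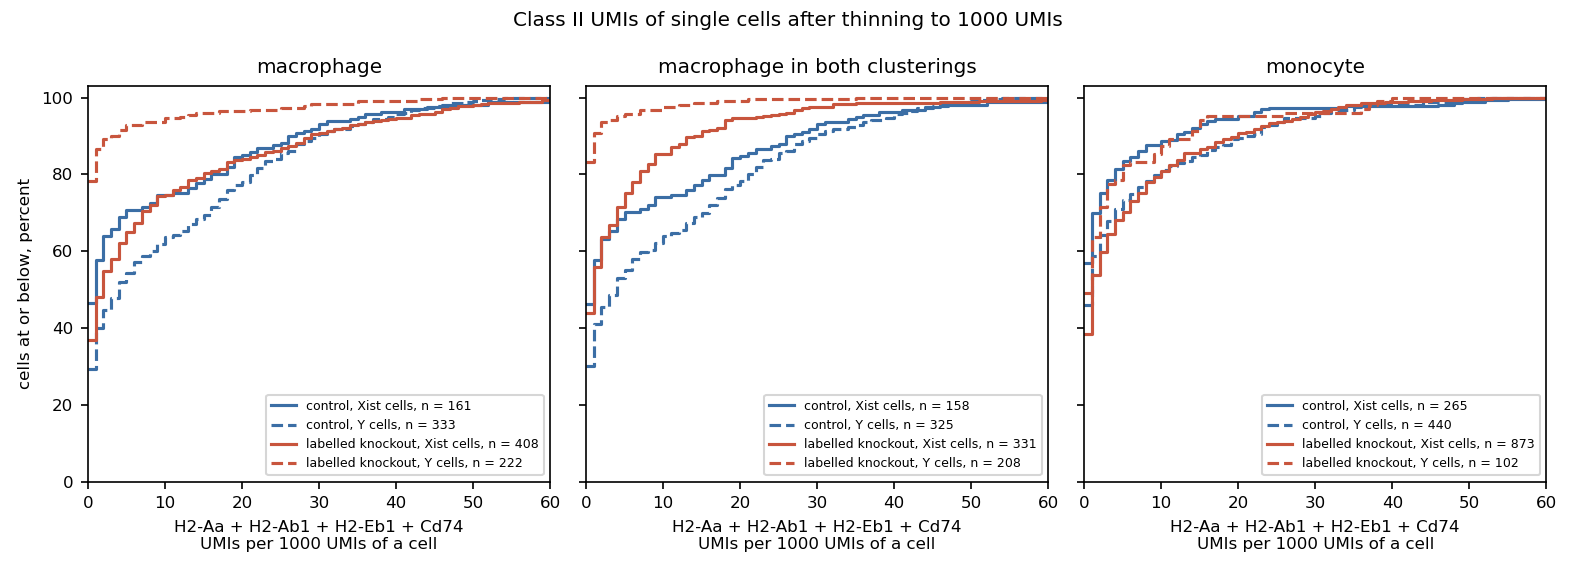
Cumulative share of cells (percent) by the UMIs of H2-Aa, H2-Ab1, H2-Eb1 and Cd74 per 1000 UMIs of a cell, for Xist cells (solid) and Y cells (dashed) of the control library and the library labelled knockout. In macrophages the dashed line of the library labelled knockout starts at 78.4% of cells with none of these UMIs, against 29.4% for the control Y cells, while the 4 monocyte lines start between 38.4% and 57.0%.

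Other markers moved with class II in these macrophages. In Y cells named macrophages in both clusterings, the 9 macrophage markers summed to 18837 and 24098 CPM, and 2 of the 9 were higher and 0 lower by the limit. The 7 monocyte markers summed to 1103 and 188 CPM, and 5 of 7 were lower. The 6 cDC2 markers summed to 270 and 43.3 CPM, and 5 of 6 were lower, with Mgl2 and Clec4a4 at 0 in the library labelled knockout. The 7 cDC1 markers summed to 336 and 271 CPM. In Xist cells of this class the monocyte markers summed to 769 and 857 CPM and the cDC2 markers to 188 and 113 CPM, with Clec4a4 at 0 in the library labelled knockout. The part of these markers, and of the make-up of the class, in the class II difference was not tested.

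Of the other genes of the pathway, few differed in macrophages. In all cells named macrophages in both clusterings, 0 of the 7 RFX, NF-Y and CREB genes was past the limit. In the Y cells of this class 2 of the 7, Rfx5 and Rfxank, were lower and 0 higher, and in its Xist cells 0 of 7 was past it. Jak2, upstream of Ciita, and Cd86, a costimulation gene, were also lower in these Y cells, where 5.39% of all genes were lower. Of 10 genes upstream of Ciita, 2 were lower: Ifngr1, a chain of the interferon gamma receptor, at 169 and 101 CPM, and Irf4, a transcription factor, at 7.44 and 3.14 CPM. H2-Ob, which encodes the partner chain of H2-Oa, was lower at 9.04 and 2.41 CPM. Of 8 antigen-processing genes only Ctsl, a protease of the endosome, was past the limit, and it was higher, at 346 and 585 CPM. None of the 3 costimulation genes Cd80, Cd86 and Cd40 and none of the 3 measured genes among 4 of the ubiquitin ligase and Cd83 list was past it. These genes were named after their values were seen. In the Y cells and in the Xist cells of this class Ifngr1, Irf4 and H2-Ob were lower and Ctsl was higher as well, with log2 ratios of -0.71 and -0.68 for Ifngr1 and 0.94 and 0.73 for Ctsl. Over all macrophages of the joint clustering Ctsl alone was past the limit, with a log2 ratio of 0.60.

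Monocytes taken whole had similar class II levels in both libraries. H2-Aa stood at 1232 and 1072 CPM, H2-Ab1 at 1204 and 1166, Cd74 at 3054 and 3097, and Ciita at 32.6 and 33.1 CPM. H2-DMb1 was highest in relative terms, at 194 and 276 CPM with a log2 ratio of 0.50. The member median was 0.02, and 0 of 9 members were past the limit in either direction, where 3.05% of all genes were higher and 1.83% lower.

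The kinds of monocytes differed from each other. In Xist cells (266 and 886) H2-DMb1 stood at 138 and 305 CPM, with a log2 ratio of 1.12, and Cd74 at 2178 and 3375 CPM, with 0.63. The median over the 8 measured members was 0.42, and 2 of 8 were higher and 0 lower, where 5.66% of all genes were higher and 5.82% lower. In these Xist cells 5 of 7 neutrophil markers were lower, summing to 139 and 71.5 CPM, and 4 of 5 erythroid markers were higher, summing to 3.34 and 427 CPM, and their part in the result was not tested. In Y cells (440 and 102) H2-Eb1 stood at 1113 and 611 CPM, H2-Aa at 1421 and 854, and H2-Ab1 at 1412 and 903 CPM, the 3 members past the limit of 7 measured. Their median was -0.50, where 11.3% of all genes were lower and 7.71% higher, so the count of the Y cells stands on a wide background. Ciita in Y monocytes stood at 34.1 and 30.9 CPM, from 93 and 18 UMIs. The interval of its ratio to the control, 0.514 to 1.51, includes no difference. It also includes the ratios of H2-Eb1 (0.549), H2-Aa (0.601) and H2-Ab1 (0.639). These counts are too few to tell whether Ciita differed from the chain genes. The monocyte clusters differed in the direction of H2-Ab1. In Y cells it stood at 1662 and 1054 CPM in the cluster led by Dmkn, Vcan and Chil3, but at 554 and 784 CPM in the one led by Ace, Adgre4 and Treml4. The latter held 113 of the 440 and 53 of the 102 Y monocytes, and another monocyte cluster held 129 and 4 of them. The part of this makeup in the lower level was not tested.

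Among the genes upstream of Ciita, Irf1, a factor that interferon gamma induces, was higher in monocytes of the library labelled knockout, at 55.7 and 99.2 CPM, with log2 ratios of 1.27 in Xist cells and 0.68 in Y cells. The Ciita levels of these monocytes stood within counting error of each other between the libraries.

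Conventional dendritic cells had similar class II levels in both libraries, and H2-Oa alone was past the limit. In cDC1 H2-Ab1 stood at 8062 and 8180 CPM, Cd74 at 13332 and 13236, and Ciita at 250 and 213 CPM. In cDC2 H2-Ab1 stood at 8042 and 7972 CPM, Cd74 at 15830 and 14178, and Ciita at 267 and 236 CPM. The member medians were -0.01 and -0.13. H2-Oa stood at 114 and 67.1 CPM in cDC1, 1.70-fold lower (1.33 to 2.20), and at 136 and 80.7 CPM in cDC2, 1.69-fold lower (1.44 to 1.995). It was the 1 member of 9 past the limit in each class, where 5.05% of all genes were lower and 4.24% higher in cDC1 and 2.13% lower and 2.84% higher in cDC2. In cDC1 all 5 T cell markers were higher, summing to 14.6 and 97.9 CPM, as were 5 of 7 monocyte markers, summing to 1083 and 1539 CPM, and 5 of 7 neutrophil markers were lower, summing to 248 and 4.02 CPM. In Xist cDC2 7 of 9 macrophage markers were higher, summing to 551 and 1332 CPM. In the same Xist cells 4 of 7 B cell markers and 6 of 7 neutrophil markers were lower and 0 higher. Of the 7 pDC markers, 4 were higher and 1 lower there. In Y cDC2, with 24 cells in the library labelled knockout, 8 of 9 macrophage markers were lower and 1 was higher. The part of these markers in the H2-Oa values was not tested.

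H2-Oa was also lower in migratory dendritic cells, at 79.8 and 26.6 CPM, from 74 and 33 UMIs, 2.997-fold lower (1.96 to 4.67). In pDC it stood at 138 and 153 CPM and in B cells at 237 and 239 CPM, so the lower H2-Oa was found in the other 3 dendritic classes and not in these. Against H2-DMa, the H2-Oa share of their UMIs was 13.5% and 8.20% in cDC1, 13.3% and 8.34% in cDC2, and 28.5% and 16.6% in migratory dendritic cells. By kind, H2-Oa in cDC2 stood at 158 and 70.5 CPM in Xist cells but at 110 and 134 CPM in Y cells, the latter from 231 and 23 UMIs and 24 cells of the library labelled knockout. In Y cells of cDC1 it stood at 115 and 67.6 CPM. After thinning to 1000 UMIs, where 9 of 137 control cDC1 and 13 of 132 cDC1 of the library labelled knockout kept an H2-Oa UMI, its log2 ratio in cDC1 was 0.55. The values in Y cells of cDC2 and in thinned cDC1 rest on few UMIs and give no direction: in the former the interval of the ratio to the control, 0.762 to 1.89, includes no difference.

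Ciita differed beyond counting error in migratory dendritic cells too, at 91.7 and 45.2 CPM, from 85 and 56 UMIs, 2.03-fold lower (1.43 to 2.896). H2-DMa stood at 201 and 134 CPM, H2-Aa at 4444 and 3378, H2-Eb1 at 3806 and 3083, Cd74 at 7066 and 5549, and H2-Ab1 at 2367 and 1833 CPM. The median was -0.37, and 2 of 9 members, Ciita and H2-Oa, were lower and 0 higher, where 4.44% of all genes were lower and 13.8% higher. The 7 monocyte markers summed to 289 and 1081 CPM in these cells, the 9 macrophage markers to 321 and 488 CPM and the 8 markers of the class itself to 7086 and 6428 CPM. All 5 T cell markers were higher, summing to 76.6 and 457 CPM, as were 3 of 5 NK cell markers, at 6.47 and 73.4 CPM in sum, and 3 of 5 erythroid markers were lower, at 174 and 1.61 CPM in sum. The part of these markers in the result was not tested. Too few cells were of one kind in each library for values by kind.

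In pDC the chain genes and Cd74 were somewhat lower in the library labelled knockout, H2-Aa at 1742 and 1429 CPM and Cd74 at 4782 and 3910 CPM. H2-DMb2 was the 1 member of 9 past the limit, from 17 and 3 UMIs, and the interval of its ratio to the control, 0.0587 to 1.08, includes no difference. Of all genes in pDC 10.2% were lower and 6.43% higher. In B cells, which do not express Lyz2 as a rule, no member was past the limit, where 7.65% of all genes were lower and 2.87% higher. H2-Aa stood there at 3490 and 3730 CPM, H2-Ab1 at 2640 and 3145, Cd74 at 10240 and 10519, and Ciita at 148 and 118 CPM, with a member median of 0.04.

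The pathway lists gave few further differences in dendritic and B cells. In cDC2, 1 of 10 genes upstream of Ciita was lower, Ifngr1 at 289 and 189 CPM, and H2-Ob was lower at 85.5 and 50.3 CPM, next to H2-Oa. Nfyb, a subunit of NF-Y, and Lgmn, a protease of the endosome, were higher in both kinds of cDC2, with log2 ratios of 0.62 and 0.65 for Nfyb and 0.82 and 0.99 for Lgmn in Xist and Y cells, although neither was past the limit in cDC2 as a whole and Nfyb had 9 UMIs in the Y cells of the library labelled knockout. In B cells Rfxap, a subunit of the RFX complex, stood at 27.9 and 58.6 CPM and was higher in both kinds, with log2 ratios of 1.04 and 1.20, the latter from 16 and 5 UMIs. Of the 10 genes upstream of Ciita in migratory dendritic cells, Irf8, a dendritic cell factor, was higher at 417 and 700 CPM and Prdm1, a repressor of Ciita, lower at 45.3 and 18.6 CPM. The endosomal proteases Ctsl, at 7.55 and 112 CPM, and Ctsb, at 233 and 439 CPM, were higher there, beside the monocyte and macrophage markers given above. In cDC1 Nfya, a subunit of NF-Y, was lower at 54.0 and 32.2 CPM.

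Across classes and libraries the 9 genes went together, with differences between them. Over 14 points (7 classes in each of the 2 libraries, which share their library, depth and cells), the log2(CPM + 5) of each member was correlated with the mean of the members, which includes it. Pearson's r was 0.99 for Cd74, 0.97 for Ciita, 0.96 for H2-Ab1 and H2-Aa, 0.91 for H2-Eb1, 0.85 for H2-DMb2, 0.83 for H2-DMa, 0.71 for H2-Oa and 0.56 for H2-DMb1. With Ciita itself, r was 0.97 for Cd74, 0.96 for H2-Ab1, 0.60 for H2-Oa and 0.58 for H2-DMb1. H2-DMb1 and H2-Oa thus followed the others least. Outside the 9 genes and among 9601 genes with at least 200 UMIs, the 5 most like their mean were the ribosomal protein genes Rpl23a (r of 0.88), Rpl13 and Rps7 (0.87), and Rpl17 and Rps23 (0.86).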

How the data were processed

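Single-cell libraries of sorted CD45+ cells from tumors of 2 groups, 1 library each, were analysed. The deposited files are sparse matrices of unnormalized UMI counts for each gene and cell barcode, per the file headers. The authors used Cell Ranger 3.0.1 and the mm10 build, per the submitters' processing notes; the annotation is not given in the sources used here.

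Barcodes passed with 200 or more genes and a mitochondrial share of UMIs up to 10%. The highest Scrublet doublet scores were removed at 0.8% per 1000 barcodes (402 and 263 barcodes). Cells were clustered (scanpy 1.11.5, Python 3.11.15) on 2000 variable genes, 30 principal components, 15 neighbours and Leiden resolution 1. The 9 members, the pathway lists, interferon genes, Usp18 and Lyz2 were left out of clustering. Of 24 clusters, 23 were named from marker lists. A name needed 3 detected markers.

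Counts were summed per library and class and scaled to CPM. Intervals of CPM are exact Poisson and those of shares Clopper-Pearson (scipy 1.17.1), both at 95%. The interval of a ratio is the conditional binomial one. With 1 library per group no test across genes was run. A gene entered a list with at least 20 UMIs over both libraries in a class. The ratio code was tested on simulated data. The named genes are all 9 members, pathway genes past 1.5-fold in both kinds of cell, the genes that check the labels and the 5 genes most like the members. Other pathway genes were named after their values were seen. The members and lists were chosen with earlier results of these data known. Results were recomputed under 10 alternative settings fixed with the design and 5 added after the data were seen. Promoter windows come from RefSeq (GRCm38.p6) and gene positions from GENCODE M21. A result of the pathway lists is not reported here.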

Additional observations from a re-analysis of the deposited data

Results flagged for a closer look

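Differences of opposite direction in Xist cells and Y cells between the libraries were found for several members, and the difference between the kinds was not tested. In macrophages of the joint clustering the log2 ratio of the library labelled knockout over the control was 0.43 in Xist cells and -1.73 in Y cells for H2-DMa, and 0.48 and -1.96 for H2-DMb1. Among cells named macrophages in both clusterings the Xist values were -0.16 and -0.36, so the higher values were not seen there.

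In monocytes the log2 ratio was 0.35 in Xist cells and -0.73 in Y cells for H2-Aa, 0.52 and -0.64 for H2-Ab1, 0.47 and -0.86 for H2-Eb1, and 0.63 and -0.50 for Cd74. The member median was 0.42 and -0.50. In cDC2 the values were small: -0.21 and 0.088 for H2-Aa, and -0.26 and 0.10 for H2-Eb1, with 24 Y cells in the library labelled knockout.

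Class II UMIs were also counted in T cells, which enter no comparison between the libraries in the report. H2-Ab1 stood at 66.7 CPM in T cells of the control library and 881 CPM in those of the library labelled knockout. In the latter, 49 of 1078 T cells had at least 20 UMIs of H2-Aa, H2-Ab1, H2-Eb1 and Cd74 and held 96.8% of these UMIs, and 40 of the 49 were in the cluster led by Foxp3. In the control library, 13 of 1681 T cells held 66.6%. The other T cells thus stood near 0 in both libraries.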

How the results depend on the processing

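Medians of the 9 genes and 10 alternative settings, with 5 more added after the data were seen, were compared, and a value counted as unmoved when it shifted by less than the counting interval of the members. Of 118 such medians 83 were unmoved, among them all that could be computed for cDC1, migratory dendritic cells, pDC and B cells. Of 651 values of single genes 447 were unmoved. Of those past the 1.5-fold limit 2 changed sign, H2-Oa in cDC1 after thinning (0.55) and in cDC2 Y cells (0.28), and some under it did so between the kinds of cell, as given above.

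In macrophages the median stayed negative: -0.81 with a pseudocount of 1, -1.07 with a mitochondrial limit of 5%, -1.72 with each library clustered on its own, -0.82 with marker gates, -0.58 after thinning, -1.02 without the cycling cluster, -1.80 for cells in the same class in both clusterings, -0.070 in Xist cells and -1.96 in Y cells. In their Xist cells it was -0.33 with the mitochondrial limit of 5%, -1.09 with separate clustering, 0.21 after thinning, -0.39 without the cycling cluster and -1.08 for the same class in both clusterings. In their Y cells these 5 settings gave -2.35, -2.39, -2.31, -2.51 and -2.29.

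In monocytes the median was -0.12 with the limit of 5%, 0.26 with separate clustering, 0.42 in Xist cells and -0.50 in Y cells. In their Xist cells it was 1.13 with the limit of 5%, 0.58 with separate clustering, 0.60 with gates, 0.28 with the unnamed cluster counted as monocytes and 0.27 for the same class in both clusterings. In their Y cells it was -1.55 with the limit of 5%, -0.017 with gates and -0.70 with the unnamed cluster. In cDC2 it was -0.011 with separate clustering, -0.24 with gates, -0.035 for the same class in both clusterings and -0.027 in Y cells. Except where a setting changes the cells or the scale by its construction, the cause was not tested.

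Marker gates left 10 and 8 cDC1 and 3 and 0 pDC, too few for a value, as did a limit of 5% for pDC, and several classes held under 20 cells of a kind. No paired analysis was possible because each group is 1 library. For low genes such as H2-DMb2 and H2-Oa in macrophages and monocytes depth limits the ratios.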
